A study of Mus musculus with 6 samples.

Results

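A set of 10 transcription factors that start and carry the fat cell programme, Pparg, Cebpa, Cebpb, Cebpd, Klf5, Klf15, Srebf1, Nr1h3, Ebf1 and Zfp423, were followed across 6 arrays of mouse 3T3-L1 cells. The 10 genes were taken by symbol from the platform annotation, and all 10 of them were present among the 19938 genes with a single symbol, each on 1 probe set. Of these, 9 passed the filter on dim genes, a mean over the 6 arrays of at least 5.87 on the log2 scale, which left 9969 genes for the tests. Klf15, with a mean of 5.73, did not pass, so its values are given without a test. Every expression value below is a log2 signal, and every difference is a log2 difference unless a fold is named.

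3T3-L1 is an established line of mouse embryo fibroblasts committed to the fat lineage. Adipocytes were made from confluent cells by 3 days in medium with 10% fetal bovine serum and a cocktail of dexamethasone (1 µmol/l), insulin (1 µg/ml) and the phosphodiesterase inhibitor IBMX (115 µg/ml), and then 3 days with insulin alone. The 3 adipocyte cultures received 0.5 mM AICAR, 0.5 mM adenine or neither during the 3 days of induction, so the compound had been absent for 3 days at harvest. The 3 undifferentiated fibroblast cultures, kept in 10% calf serum without the induction drugs, received 0.5 mM AICAR, 0.5 mM adenine or neither for 3 days. AICAR is a nucleoside that cells phosphorylate to an AMP analogue and that activates the AMP-activated protein kinase, and adenine is a purine base that cells salvage to AMP. Each of the 6 conditions has 1 array, so their number limits the precision, and a difference between 2 arrays comes without any replicate to check it. State went together with the drugs, the serum and the days in culture, which cannot be told apart from it.

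In this cell line the hormone cocktail first induces C/EBPbeta and C/EBPdelta, which are activated by cAMP and by glucocorticoid. Together with the zinc finger factor KLF5 they switch on the nuclear receptor PPARgamma and C/EBPalpha, which then maintain each other and the genes of lipid storage. SREBP-1 (from Srebf1) and the oxysterol receptor LXRalpha (from Nr1h3) drive fatty acid synthesis in the mature cell, KLF15 acts late, and EBF1 and ZFP423 mark and commit the precursor.

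Markers of the fat cell were on average higher on the adipocyte arrays. The mean of the precursor markers was lower there with adenine and without compound but nearly level with AICAR, where single markers differed both ways. The mean log2 level of the 7 adipocyte markers on the array (Adipoq, Fabp4, Plin1, Cidec, Lep, Lpl and Retn) was 9.74 in AICAR adipocytes, 10.84 in adenine adipocytes and 9.97 in control adipocytes, against 6.46, 6.15 and 6.19 in AICAR, adenine and control fibroblasts. Lep, the hormone leptin, stayed between 4.25 and 4.65 on all 6 arrays. The 7 fibroblast and preadipocyte markers (Dlk1, Pdgfra, Pdgfrb, Col1a1, Col3a1, Thy1 and Cd34) averaged 9.38, 8.33 and 9.67 in AICAR, adenine and control adipocytes, against 9.45, 10.22 and 10.17 in AICAR, adenine and control fibroblasts. None of the 4 brown or beige fat markers (Ucp1, Cidea, Dio2, Prdm16) and none of the 4 endothelial markers (Pecam1, Cdh5, Kdr, Tek) passed the filter. Of the macrophage markers only Cd68 passed, and Ptprc, Adgre1, Itgam and Csf1r did not. Of the muscle markers Des and Actc1 passed, and Myod1 and Myog did not. Of the bone and cartilage markers Sox9 and Alpl passed, and Sp7 and Acan did not.

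**Figure D1:**
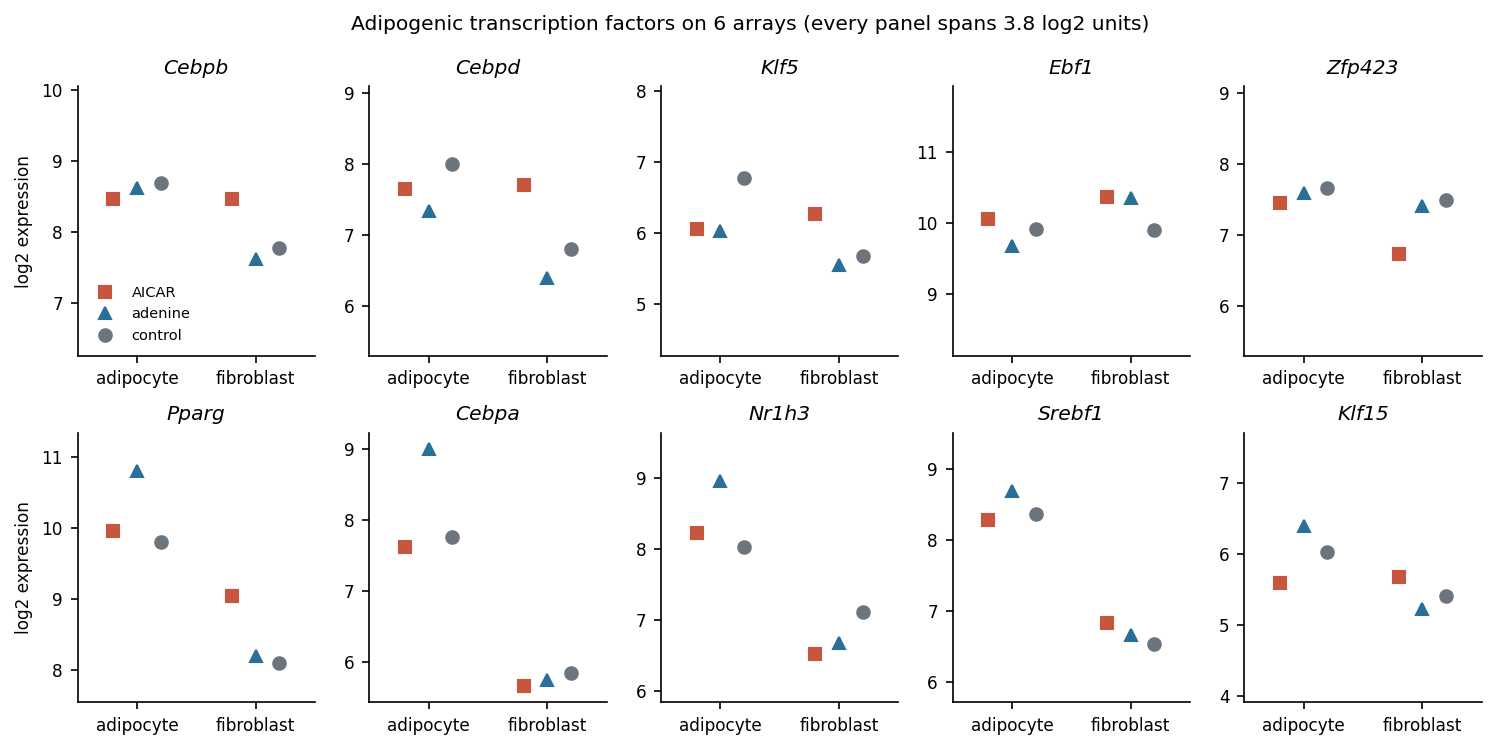
Log2 expression of the 10 factors (y axis, same span in every panel) on the 6 arrays, with adipocytes left and fibroblasts right (x axis) and 1 symbol per medium. Pparg, Cebpa, Nr1h3 and Srebf1 separate the states by at least 0.76, and Cebpb by 0.01, while the adenine adipocytes are the highest array for Pparg, Cebpa, Nr1h3, Srebf1 and Klf15. Of all genes tested 42% do not overlap between the states.

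The 4 factors of the mature fat cell, PPARgamma, C/EBPalpha, LXRalpha and SREBP-1, were higher on each of the 3 adipocyte arrays than on any fibroblast array. The same held for 2200 of the 9969 genes tested, and 42% did not overlap between the states in one direction or the other. Pparg (probe set 10540897, chr6:115360879-115490404, GRCm38), the master regulator of fat cell formation, stood at 9.95, 10.80 and 9.81 in AICAR, adenine and control adipocytes, against 9.04, 8.19 and 8.09 in AICAR, adenine and control fibroblasts. Cebpa (probe set 10552140, chr7:35119293-35121928), its partner in terminal differentiation, stood at 7.61, 9.00 and 7.75 in AICAR, adenine and control adipocytes, against 5.66, 5.74 and 5.84 in AICAR, adenine and control fibroblasts. The adenine adipocytes were thus the highest array for both genes. The 3 fibroblast levels of Cebpa lay below the filter floor of 5.87, so the size of its fold rests on a dim level. It also depends on how background was handled, which is not given in the sources used here.

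Nr1h3 (probe set 10484987, chr2:91184061-91202829) had 8.23, 8.96 and 8.03 in AICAR, adenine and control adipocytes, against 6.52, 6.68 and 7.12 in AICAR, adenine and control fibroblasts. Srebf1 (probe set 10386473, chr11:60199084-60224186) had 8.28, 8.69 and 8.36 in AICAR, adenine and control adipocytes, against 6.83, 6.66 and 6.53 in AICAR, adenine and control fibroblasts. Srebf1 kept the 3 adipocyte arrays within 0.41 of each other and the 3 fibroblast arrays within 0.30. The probe set does not separate the 1a and 1c forms of SREBP-1.

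The earlier factors were less clearly split by state, since AICAR fibroblasts reached adipocyte levels. Cebpb (probe set 10478890, chr2:167688915-167690432) stood at 8.47, 8.63 and 8.69 in AICAR, adenine and control adipocytes, against 8.46, 7.62 and 7.78 in AICAR, adenine and control fibroblasts. Cebpd (probe set 10433885, chr16:15887286-15889545) stood at 7.65, 7.33 and 8.00 in AICAR, adenine and control adipocytes, against 7.71, 6.39 and 6.80 in AICAR, adenine and control fibroblasts. For both, the AICAR fibroblasts lay within 0.06 of the AICAR adipocytes. The states overlapped for Cebpd, and for Cebpb they were apart by 0.01.

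Klf5 (probe set 10416777, chr14:99298691-99313412), an early activator of Pparg, stood at 6.05, 6.02 and 6.77 in AICAR, adenine and control adipocytes, against 6.27, 5.55 and 5.67 in AICAR, adenine and control fibroblasts. Its highest array was the control adipocytes, and the AICAR fibroblasts lay above both compound-treated adipocyte arrays. Klf15 (probe set 10540028, chr6:90461043-90491803) had 5.60, 6.40 and 6.03 in AICAR, adenine and control adipocytes, against 5.68, 5.23 and 5.42 in AICAR, adenine and control fibroblasts, and its states overlapped.

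The 2 precursor factors varied least. Ebf1 (probe set 10375360, chr11:44618100-45008096) had 10.06, 9.67 and 9.92 in AICAR, adenine and control adipocytes, against 10.37, 10.35 and 9.90 in AICAR, adenine and control fibroblasts. Zfp423 (probe set 10580473, chr8:87661810-87962053) had 7.45, 7.60 and 7.66 in AICAR, adenine and control adipocytes, against 6.73, 7.41 and 7.50 in AICAR, adenine and control fibroblasts. Both overlapped between states, and they are the 2 factors with a range below 1 over the 6 arrays, 0.69 for Ebf1 and 0.93 for Zfp423. The lowest Zfp423 value was that of the AICAR fibroblasts. Over the 9 factors that passed the filter, 5 had all 3 adipocyte arrays above all 3 fibroblast arrays and 0 the reverse. Cebpa is 1 of the 5, and it passed the filter through its adipocyte arrays alone. Of all genes tested 42% did not overlap between the states in one direction or the other, a share that the 5 of 9 factors are near. In the adipocyte direction alone 2200 of the 9969 genes did not overlap. No test was made of these counts.

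Differentiation was tested in an additive limma model over all 6 arrays with medium as a block, in which the departure from additivity serves as the error. Srebf1 rose by 1.77 (SE 0.169, limma adjusted p = 0.00857), Cebpa by 2.38 (SE 0.296, limma adjusted p = 0.014), Nr1h3 by 1.63 (SE 0.275, limma adjusted p = 0.0258) and Pparg by 1.74 (SE 0.322, limma adjusted p = 0.0308). Thus 4 of 9 factors rose and 0 fell, where 10.6% of all 9969 genes passed. Cebpa passed the filter through its adipocyte arrays alone, so that its place in this count follows in part from the filter, and of the other 8 factors 3 rose. The median of the 9 coefficients, with Cebpa included, was 0.70, against 0.02 for all genes tested. Cebpd (0.70, 95% interval 0.04 to 1.36, limma adjusted p = 0.153) and Cebpb (0.64, 95% interval 0.06 to 1.22, limma adjusted p = 0.14) did not pass. Klf5 (0.45), Zfp423 (0.36) and Ebf1 (-0.32) did not pass either, with limma adjusted p from 0.235 to 0.318.

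The model has 2 residual degrees of freedom, and 1 when a pair of arrays is left out. Without the control pair 0 of 9 factors and 0 of all genes passed in limma, where 2095 genes had an unadjusted p under 0.05. The coefficients were then 2.61 for Cebpa, 2.0 for Nr1h3, 1.76 for Pparg and 1.74 for Srebf1, with adjusted p between 0.0917 and 0.164 in limma. Without the adenine pair the same 4 factors passed (adjusted p 0.00477 to 0.0376 in limma). Without the AICAR pair 5 factors passed, with Cebpb (adjusted p = 0.0327 in limma) and Cebpd (0.0286) added and Nr1h3 (0.0563) lost.

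**Figure D2:**
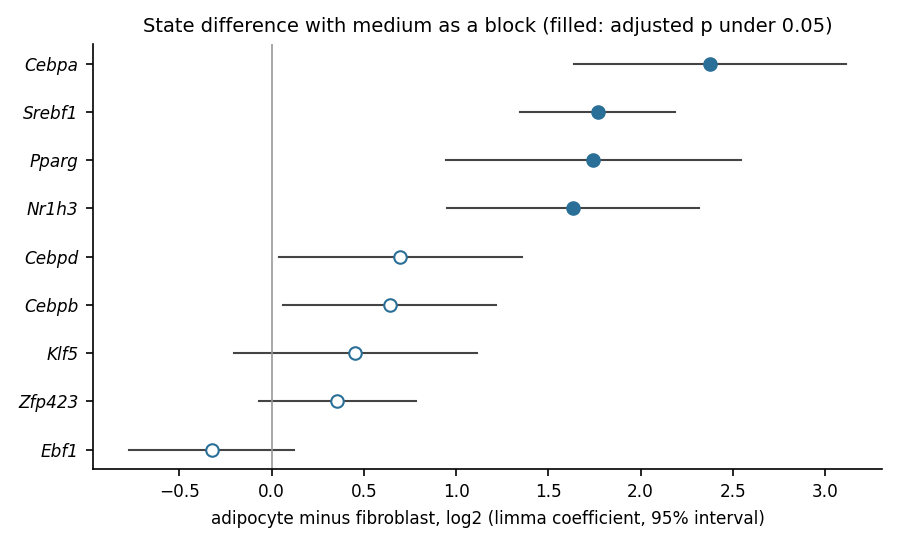
Coefficient of state (x axis, adipocyte minus fibroblast, log2) for the 9 factors past the filter, with bars for the 95% interval of the limma model. The 4 filled points, from 1.63 for Nr1h3 to 2.38 for Cebpa, passed an adjusted p of 0.05, and the intervals of Klf5, Zfp423 and Ebf1 include 0.

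Within single media the state difference of Cebpa, Pparg, Nr1h3 and Srebf1 was wider with adenine than with AICAR or without compound, while that of Cebpd and Klf5 was widest between the control arrays and that of Zfp423 with AICAR. Between adenine adipocytes and adenine fibroblasts Cebpa was 9.59-fold higher, Pparg 6.09-fold, Nr1h3 4.89-fold, Srebf1 4.09-fold and Cebpb 2.01-fold, and 5 of the 9 tested factors were at least 2-fold apart, where 15.2% of all genes were. Between the control arrays the folds were 3.77 for Cebpa, 3.55 for Srebf1, 3.29 for Pparg, 2.30 for Cebpd and 2.15 for Klf5, again 5 of 9, where 7.15% of all genes were at least 2-fold apart. Nr1h3 was 1.87-fold higher between the control arrays. Between the AICAR arrays 3 of 9 passed 2-fold, Cebpa at 3.87-fold, Nr1h3 at 3.27-fold and Srebf1 at 2.73-fold, against 10.5% of all genes. Cebpb (0.01), Cebpd (-0.06), Klf5 (-0.22) and Ebf1 (-0.31) differed by less than 1.5-fold there, while Pparg was 1.88-fold and Zfp423 1.64-fold higher. Cebpa is in each of these 2-fold counts. It passed the filter through its adipocyte arrays alone, so its place in the counts follows in part from the filter. Its folds rest on dim fibroblast levels.

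Adenine adipocytes were set against control adipocytes to ask what the base did when it was present during induction. Cebpa, Pparg and Nr1h3 were higher and Klf5 and Cebpd lower. Cebpa was 2.37-fold higher (log2 difference 1.25), Pparg 1.98-fold (0.99) and Nr1h3 1.92-fold (0.94). Srebf1 was higher by 0.33 and Klf15 by 0.37. Klf5 was lower, at -0.75, as was Cebpd at -0.67 and Ebf1 at -0.24, while Cebpb (-0.06) and Zfp423 (-0.06) were almost level. Only Cebpa passed 2-fold among the 9 tested factors, where 3.64% of all genes did, and with each array centred on its median Pparg and Nr1h3 passed as well, which made 3.

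Placed in the whole table, 1.88% of the genes tested differed by at least as much as Cebpa between adenine and control adipocytes, 3.76% by as much as Pparg, 4.46% by as much as Nr1h3, 8.00% by as much as Klf5 and 10.7% by as much as Cebpd. The median difference of the 9 factors was -0.06, against 0.02 for all genes, with 4 factors above 0 and 5 below. On the same arrays the mean of the 7 fibroblast and preadipocyte markers was 8.33 in adenine adipocytes and 9.67 in control adipocytes. The 6 of these markers that passed the filter were each at least 2-fold lower with adenine. Among all genes tested 3.64% passed 2-fold in either direction there. The mean of the 7 adipocyte markers was 10.84 in adenine adipocytes and 9.97 in control adipocytes. In bulk RNA a larger share of converted cells and more RNA per converted cell cannot be told apart, and the part of cell composition in these differences was not tested.

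AICAR adipocytes lay close to control adipocytes for most factors. Klf5 had the largest difference, -0.73 (1.65-fold lower), which 2.28% of all genes tested matched or exceeded, and Klf15 stood at -0.43 and Cebpd at -0.35. Klf5 is dim, with a mean over the 6 arrays of 6.05, near the filter floor of 5.87. Pparg was at 0.14, Nr1h3 at 0.21, Srebf1 at -0.08, Cebpa at -0.14, Ebf1 at 0.14, Zfp423 at -0.21 and Cebpb at -0.22. Of the 9 tested factors 0 passed 2-fold, where 0.993% of all genes did. Klf5 was lower with each compound by nearly the same amount, -0.73 with AICAR and -0.75 with adenine, and both comparisons use the same control array.

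Set directly against adenine adipocytes, AICAR adipocytes had lower Cebpa (-1.39, 2.61-fold), Pparg (-0.85), Klf15 (-0.80), Nr1h3 (-0.73) and Srebf1 (-0.41). Klf5 was level between the 2 compounds (0.03) and Ebf1 (0.38) and Cebpd (0.32) were higher with AICAR. Of the tested factors 1 of 9 passed 2-fold, Cebpa, where 3.42% of all genes did, and 1.25% of genes differed by as much as Cebpa. Both compounds were given at 0.5 mM for the same 3 days.

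**Figure D3:**
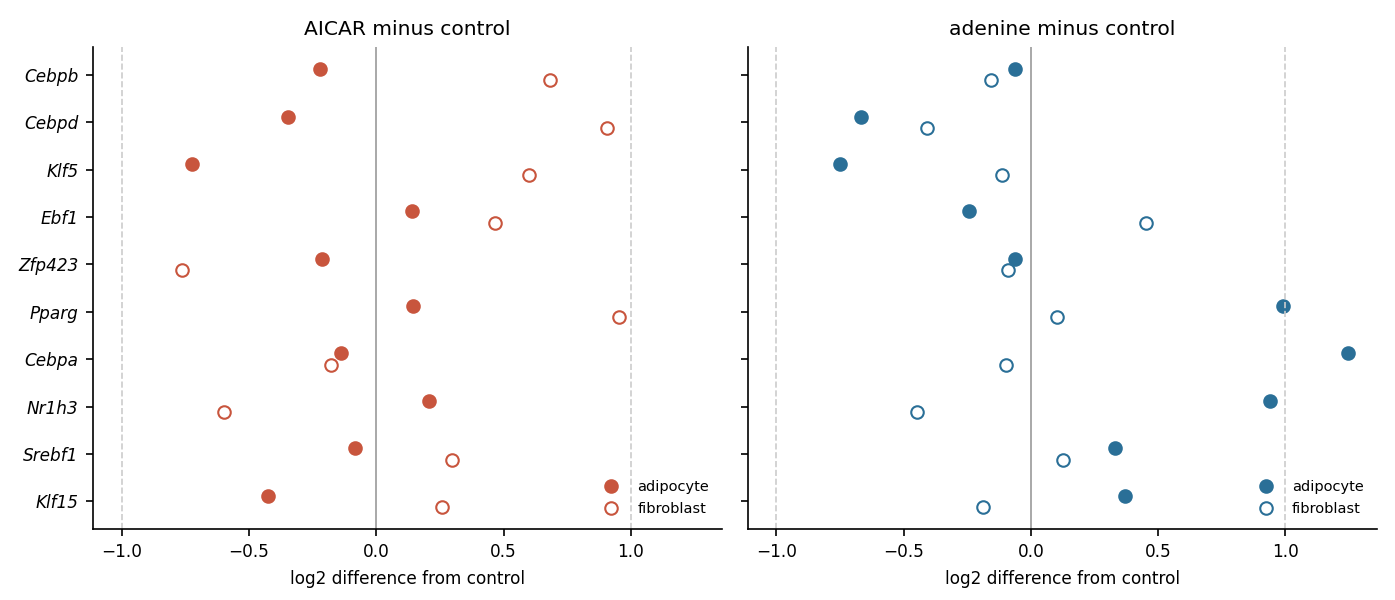
Log2 difference from the control array of the same state (x axis) for the 10 factors, with AICAR in the left panel and adenine in the right, filled symbols for adipocytes and open ones for fibroblasts, and dashed lines at 2-fold. In adenine adipocytes Cebpa, Pparg and Nr1h3 lie between 0.94 and 1.25 and Klf5 and Cebpd below -0.66, and in AICAR fibroblasts Pparg, Cebpd, Cebpb and Klf5 lie between 0.60 and 0.96.

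In fibroblasts, which received no induction drugs, AICAR went with higher levels of the early factors and of Pparg. Pparg was 1.94-fold higher in AICAR fibroblasts than in control fibroblasts (0.96), Cebpd 1.88-fold (0.91), Cebpb 1.60-fold (0.68) and Klf5 1.52-fold (0.60). Ebf1 was higher by 0.47 and Srebf1 by 0.30. Zfp423 stood at -0.76 and Nr1h3 at -0.60, and Cebpa, which these factors induce during differentiation, was at -0.18. Of the 9 factors 0 passed 2-fold, where 5.39% of all genes did. At 1.5-fold 4 of the 9 were higher and 2, Zfp423 and Nr1h3, lower, where 19% of all genes passed in either direction. Pparg's difference was matched or exceeded by 6.04% of all genes tested and that of Cebpd by 7.08%. Among adipocyte markers on the same arrays, Fabp4, a fatty acid binding protein and a direct PPARgamma target, stood at 8.62 in AICAR fibroblasts and 6.97 in control fibroblasts. Adipoq, the adiponectin gene, stood at 4.05 in AICAR fibroblasts and 4.42 in control fibroblasts, both below the filter floor. The 16 tested targets of PPARgamma and C/EBPalpha, taken up below, had a median difference of 0.03 between AICAR and control fibroblasts. Of these 16 targets 9 were above 0 and 7 below. Fabp4 alone exceeded 2-fold upwards, while Agpat2 (-1.18) and Angptl4 (-1.17) exceeded it downwards. The mean of the 7 fibroblast and preadipocyte markers was 9.45 in AICAR fibroblasts and 10.17 in control fibroblasts, and Cd68, a lysosomal macrophage marker, stood at 7.44 in AICAR fibroblasts and 5.95 in control fibroblasts, while Ptprc, Adgre1, Itgam and Csf1r did not pass the filter. Their part in the result was not tested.

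Adenine in fibroblasts left most of the factors close to control. Ebf1 was higher by 0.45, and Nr1h3 (-0.45) and Cebpd (-0.41) were lower, while the other 7 lay within 0.19 of control. Of the 9 tested factors 0 passed 2-fold, where 0.13% of all genes did. The genes as a whole also moved little, so that 2.35% of them differed by as much as Ebf1, 2.46% by as much as Nr1h3 and 3.38% by as much as Cebpd. AICAR fibroblasts set directly against adenine fibroblasts had higher Cebpd (1.32, 2.49-fold), Pparg (0.85), Cebpb (0.84) and Klf5 (0.72) and lower Zfp423 (-0.67). Here 1 of 9 factors passed 2-fold, Cebpd, where 5.49% of all genes did.

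Across both states no compound effect passed a test. With state as a block the limma model called 0% of the 9969 genes and 0 of the 9 factors for adenine against control, for AICAR against control and for AICAR against adenine, and the numbers of genes with an unadjusted p under 0.05 in limma were 62, 226 and 424. Among the 9 factors, 0, 0 and 1 had an unadjusted p under 0.05, the 1 being Cebpd for AICAR against adenine (0.82, 95% interval 0.01 to 1.62, limma adjusted p = 0.863). For Pparg the mean AICAR effect was 0.55 with a 95% interval of -0.43 to 1.53. For Cebpa the mean adenine effect was 0.57 with a 95% interval of -0.33 to 1.48. A response that differs between the states counts as error in this model.

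Promoter sequences are shown for 2 of the genes of the cascade. These are Pparg, with its downstream start and 1 of its 2 upstream starts, and Cebpb, among the first factors to be induced. The array has 1 probe set for Pparg and does not tell the transcripts of its starts apart. Each window runs from 250 bases before to 50 after a RefSeq start (GRCm38.p6, plus strand), and capitals mark matches to the motifs searched on both strands. These were the C/EBP motif TTGCNNAA, the nuclear receptor motif AGGTCA, the cAMP element motif TGACG and the EBF motif CCCNNGGG, besides an E-box (CACGTG), a sterol element (TCACNCCA), a CACCC box (CCACACCC) and a glucocorticoid receptor motif (AGAACA).
Pparg, downstream start, chr6:115421816-115422115: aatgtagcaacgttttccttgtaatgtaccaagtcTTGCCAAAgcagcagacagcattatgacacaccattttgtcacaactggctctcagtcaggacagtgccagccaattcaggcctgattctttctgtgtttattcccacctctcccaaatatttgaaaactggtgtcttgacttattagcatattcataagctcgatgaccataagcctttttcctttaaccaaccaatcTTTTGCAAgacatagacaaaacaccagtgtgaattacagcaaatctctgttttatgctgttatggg
Pparg, first upstream start, chr6:115360894-115361193: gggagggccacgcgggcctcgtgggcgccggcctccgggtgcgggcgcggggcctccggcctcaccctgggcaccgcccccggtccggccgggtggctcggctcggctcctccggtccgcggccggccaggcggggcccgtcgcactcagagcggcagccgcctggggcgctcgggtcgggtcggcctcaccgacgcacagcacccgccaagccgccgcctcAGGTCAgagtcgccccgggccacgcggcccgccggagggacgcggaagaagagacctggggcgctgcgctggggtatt
Cebpb, chr2:167688665-167688964: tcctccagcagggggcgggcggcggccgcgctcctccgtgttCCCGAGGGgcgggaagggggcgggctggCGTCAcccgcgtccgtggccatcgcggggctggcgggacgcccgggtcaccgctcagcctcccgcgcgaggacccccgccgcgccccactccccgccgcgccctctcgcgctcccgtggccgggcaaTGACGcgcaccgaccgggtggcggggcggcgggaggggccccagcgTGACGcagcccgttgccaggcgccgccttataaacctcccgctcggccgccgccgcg

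The downstream Pparg window held 2 matches to the C/EBP motif, with first bases at -215 and -16 relative to the start, where -1 is the base just before it, and none of the other motifs, with a GC share of 40.3%. The first upstream Pparg window held no C/EBP match and 1 nuclear receptor motif, with a GC share of 80.3%. The window of the second upstream start (chr6:115362099-115362398), not printed, also held 1 nuclear receptor motif and no C/EBP match, with a GC share of 62.7%. The Cebpb window held 3 cAMP element motifs and 1 EBF motif. Over all 32851 mouse promoter windows of the same length, 10.8% hold the C/EBP motif, 16.3% the nuclear receptor motif, 20.8% the cAMP motif and 13.7% the EBF motif. Windows were found for 8 of the 10 genes (15 windows), and 2 of these held the C/EBP motif, 1 of Pparg and 1 of Zfp423, which is near the share of all windows. The window of Cebpa, not printed, held 0 of the motifs searched. The cAMP motif was in 3 of the 15 windows, 1 each of Cebpb, Klf15 and Ebf1, which is near the share of all windows. The nuclear receptor motif and the EBF motif were also each in 3 of the 15. The E-box was found in 1 window, that of Klf15, where 7.15% of all windows hold it. The sterol element (4.36% of all windows), the CACCC box (3.56%) and the glucocorticoid receptor motif (19.0%) were found in 0 of the 15. A match is a run of letters in the reference and not a measured binding site.

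Known direct targets of PPARgamma and C/EBPalpha were mostly higher in adipocytes. Of 24 listed targets 20 were on the array and 16 passed the filter. In limma 14 of the 16 rose in adipocytes, where 10.6% of all genes passed in either direction. The median coefficient of the 16 targets was 3.94, against 0.02 for all genes tested. In 5 of them (Adipoq, Cd36, Plin1, Cidec and Retn) all 3 fibroblast values lay below the filter floor. These 5 passed the filter through the adipocyte arrays, so that the median of 3.94 follows in part from the filter. Of the other 11 targets 9 rose, and the coefficients of the 11 ran from -0.04 for Plin2 to 4.92 for Gpd1. Cd36, a fatty acid transporter, stood at 10.97, 11.45 and 10.91 in AICAR, adenine and control adipocytes, against 3.98 to 4.47 in the 3 fibroblast arrays, and the size of that difference rests on dim fibroblast levels. Plin2, a lipid droplet coat protein also found in other cells, was at -0.04, and Lpl, the lipoprotein lipase, at 0.50, and both did not pass. In adenine adipocytes 8 of the 16 targets were at least 2-fold above control adipocytes, with a median difference of 0.95, where 3.64% of all genes passed 2-fold in either direction. Retn (resistin) was highest at 1.63, followed by Adipoq at 1.54, and Angptl4, a lipase inhibitor, was lowest at -0.55. In AICAR adipocytes the median of the 16 was 0.00, with the lipase Pnpla2 at 0.49, the acyltransferase Dgat2 at -0.58 and Retn at -1.13. Retn was the 1 target past 2-fold there, where 0.993% of all genes were.

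Of 16 listed targets of SREBP-1c and LXR, 14 passed the filter, and 4 rose and 0 fell in adipocytes (median coefficient 0.48). Among all genes tested 10.6% passed in either direction. Thrsp, a regulator of lipogenesis, was 1 of the 4 and is part of the median. Its coefficient of 4.34 rests on fibroblast values of 4.48 to 5.00, below the filter floor. Of the other 13 genes 3 rose, fatty acid synthase Fasn by 1.98 (limma adjusted p = 0.0108), the acyltransferase Gpam by 1.24 and the phospholipid enzyme Lpcat3 by 0.96. Mylip (-0.88) and the elongase Elovl6 (-0.54) were lowest and did not pass. In adenine adipocytes the median difference from control adipocytes was 0.46, with Fasn at 0.86, Gpam at 0.79 and Mylip at -1.11. In AICAR adipocytes the median was -0.23, with Thrsp at 7.23 in AICAR adipocytes and 9.89 in control adipocytes (-2.66) and Scd1 at -0.89. Srebf1 itself differed by -0.08 between those 2 arrays and Nr1h3 by 0.21.

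Other transcription factors known to favour adipogenesis differed between the states in both directions. Of the 15 tested, 2 rose in adipocytes, Stat5a by 0.95 and Nfia by 0.67, and 1 fell, Klf6 by 1.20 (limma adjusted p = 0.0334), with a median coefficient of -0.13, where 10.6% of all genes passed in either direction. Bcl6 (1.07) and Fosl2 (-0.45) did not pass. Of 17 tested factors known to oppose adipogenesis 0 rose and 1 fell, Klf7 by 0.89 (limma adjusted p = 0.0373), with a median coefficient of -0.50. Runx1t1 (-1.36, limma adjusted p = 0.0884) and Bhlhe40 (-1.17) were lowest and Foxo1 (0.64) highest, and these did not pass. In adenine adipocytes Runx1t1, a corepressor, stood at 6.10 against 7.93 in control adipocytes (-1.83) and Zfp521, an antagonist of EBF1 and ZFP423, at 6.72 in adenine adipocytes against 8.05 in control adipocytes (-1.33). Bhlhe40 was at 0.78 and Ddit3 at 0.65 in the same comparison, in which 8 of the 17 lay above 0 and 9 below, with a median of -0.07. In AICAR adipocytes Klf7 was at 0.52 and Smad3 at -0.45.

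Among partners and cofactors 15 passed the filter, and 2 rose and 0 fell in adipocytes, which is near the share of all genes that passed (10.6%). These were Rxra, the retinoid receptor that binds DNA together with PPARgamma and LXRalpha, by 1.19 (limma adjusted p = 0.0167), and the coactivator Ncoa1 by 1.30 (limma adjusted p = 0.0296). Ncoa3 (-0.54) and Ppargc1a (-0.23) were lowest and did not pass. In adenine adipocytes Insig1, which retains SREBPs in the endoplasmic reticulum, was at 1.21, Ppargc1b at 0.92 and Ncoa3 at -0.80. In AICAR adipocytes Med1 was at 0.19 and Ncoa3 at -0.39.

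Of the 12 genes responsive to glucocorticoid and cAMP, the signals that induce Cebpd and Cebpb, 3 rose and 0 fell in adipocytes. Among all genes tested 10.6% passed in either direction. Fkbp5, a chaperone of the glucocorticoid receptor, rose by 2.46 (limma adjusted p = 0.0122), Tsc22d3 by 1.63 and the phosphodiesterase Pde4b by 1.21. Mt1 (-0.31) and Mt2 (-0.27) were lowest. In AICAR adipocytes Fkbp5 stood at -0.83 and Dusp1 at -0.79 relative to control adipocytes, Mt1 at 0.45 and Mt2 at 0.45, with a list median of -0.07. In adenine adipocytes Dusp1 stood at -0.89 and Sgk1 at -0.83, Crem at 0.61 and Mt2 at 0.52, with a median of -0.12.

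**Figure D4:**
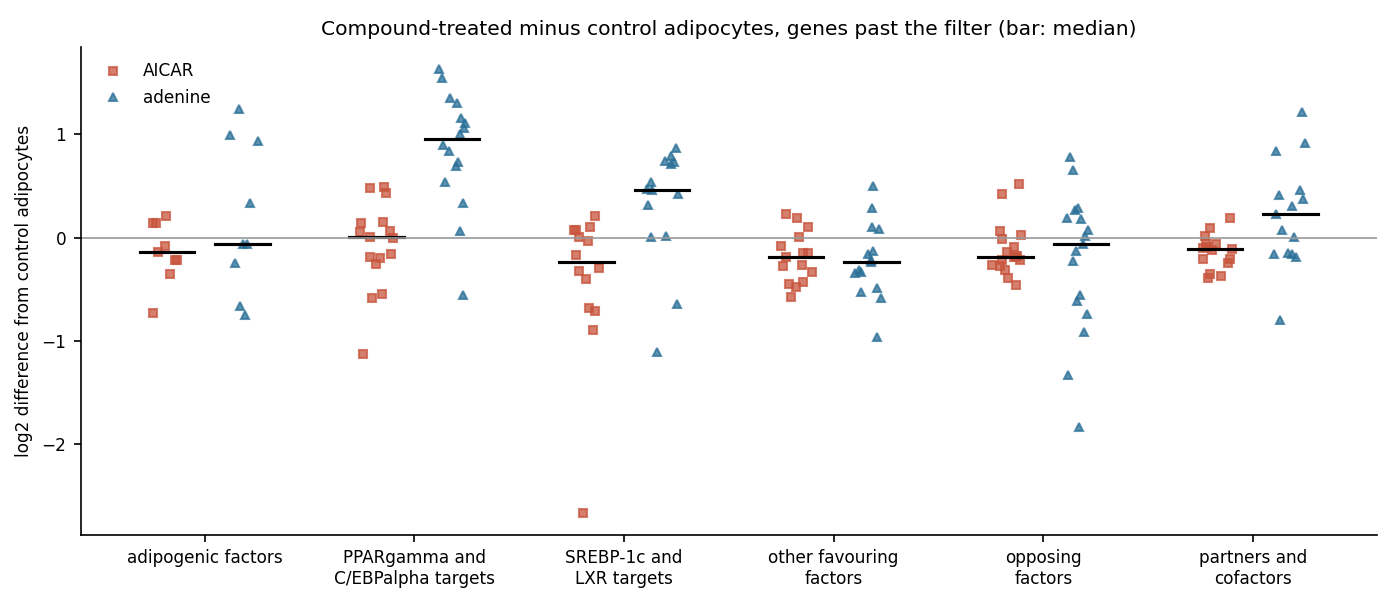
Log2 difference from control adipocytes (y axis) for AICAR and adenine adipocytes, 1 point per gene past the filter in 6 gene groups (x axis), with a bar at each median. The PPARgamma and C/EBPalpha targets have medians of 0.00 with AICAR and 0.95 with adenine, while the adipogenic factors themselves have medians of -0.14 and -0.06.

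Likeness between profiles was measured as the root mean square difference of log2 values over the 6 arrays, after each gene was centred on its own mean. Among the factors the nearest pairs were Cebpb with Klf5 (0.23), Cebpb with Cebpd (0.23), Cebpb with Klf15 (0.23) and Cebpd with Klf5 (0.24), and then Pparg with Srebf1 (0.30) and Srebf1 with Nr1h3 (0.32). Among all other genes tested, the nearest to Cebpa were Apmap (0.12), Ppp2r1b (0.14) and Pex11a (0.15), and those to Pparg were Pank3 (0.11), Txlng (0.18) and Trpc1 (0.18). Nearest to Nr1h3 were Ppa1 (0.13), Rexo5 (0.13) and Rpusd3 (0.14), and nearest to Srebf1 were Abhd5 (0.09), Hipk2 (0.13) and Adipor2 (0.13). The early factors had Polr1b, Foxo1 and Nfkbiz nearest to Cebpb (0.06 to 0.09), Slc43a3, Sema6d and Cblb nearest to Cebpd (0.19 to 0.24), and Tns1, Gnao1 and Adgrg2 nearest to Klf5 (0.16 to 0.19). Klf15 had Mrps35, Grhpr and Eef2kmt nearest (0.08 to 0.09). A gene with a narrow range is near to more genes by this measure, and 6 arrays give no test of it.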

How the data were processed

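RNA from 6 cultures was run on Affymetrix arrays that cover whole transcripts. The authors deposited their values as log2 signals of 35556 probe sets, and for these the submitters' processing notes name Transcriptome Analysis Console 1.0.0.234 and build mm10. How background, normalization and probe summary were handled is not given in the sources used here. Array medians lay between 5.41 and 5.49, so the values were used as deposited. Detection calls were not used.

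Groups came from the labels. Of the probe sets, 21789 had 1 symbol in the platform annotation, and 1 probe set per symbol was kept by highest mean. Genes in the upper part of the table, split at the median of all gene means, were tested. Additive models of state and medium were fitted with limma 3.58.1 in R 4.3.3, with Benjamini-Hochberg adjustment at 0.05 over all 9969 genes. They were run on simulated data with an additive truth and independent noise. That run cannot check the use of departures from additivity as the error. The p-values of the models take departures from additivity as the error. They do not measure the spread between replicate cultures, since no label tells of any. Single arrays were subtracted without a test. The members and gene lists were chosen with earlier results of these data known. All 10 members are named. From each other list the 2 highest and 2 lowest tested genes were considered by state and by compound in adipocytes, and some are printed, as are markers, other list genes that passed the state test and the 3 nearest profiles of each member with a range of at least 1. Promoter sequences are those of RefSeq (GRCm38.p6), matched by symbol. Alternatives were quantile normalization, median centring, the mean of probe sets, other filters, no medium term, leaving out each pair of arrays, and a 1.5-fold threshold.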

Additional observations from a re-analysis of the deposited data

Results flagged for a closer look

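For 4 factors the AICAR response had opposite directions in the 2 states, and for 2 factors the adenine response did, each beyond the robust SD of all genes in both states (AICAR 0.20 in adipocytes and 0.41 in fibroblasts, adenine 0.33 in adipocytes and 0.16 in fibroblasts). Of all genes tested, 7.85% met this with AICAR and 8.85% with adenine, against 4 and 1 of the 9 tested factors. These differences between states were not tested, since each condition has 1 array. With AICAR, Klf5, which is near the filter floor, was at -0.73 in adipocytes and 0.60 in fibroblasts (adipocyte minus fibroblast -1.33). Cebpd was at -0.35 in adipocytes and 0.91 in fibroblasts (-1.26). Cebpb was at -0.22 in adipocytes and 0.68 in fibroblasts (-0.90), and Nr1h3 at 0.21 in adipocytes and -0.60 in fibroblasts (0.80). With adenine, Nr1h3 was at 0.94 in adipocytes and -0.45 in fibroblasts (1.39), and Klf15, which is below the filter, at 0.37 in adipocytes and -0.19 in fibroblasts (0.56). Of all genes tested, 1.97% had a difference between states at least as large as that of Nr1h3 with adenine, against 20.1% for Klf15 with adenine. With AICAR the shares were 3.36% for Klf5, 3.96% for Cebpd, 10.2% for Cebpb and 13.7% for Nr1h3. The compound was present until harvest in fibroblasts and had been absent for 3 days in adipocytes, and the part of this in the differences was not tested.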

How the results depend on the processing

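All 270 alternative values of single member differences between arrays moved by less than the robust SD of their comparison. The alternatives were quantile normalization, median centring and the mean of probe sets. The last could not move any difference, since each member has 1 probe set. Of 192 alternative values of member coefficients 5 lost and 2 gained the call, and 1 changed sign without a call. The compound coefficients among them had no call to lose, since 0 genes were called for a compound under any setting. All 5 losses fell on the 4 factors called for state. Without the control pair all 4 lost the call, and without the AICAR pair Nr1h3 did. The count of genes called for state in limma (1055) became 605 with a filter at the 75th percentile, where 1 of 3 tested members passed, and 1616 without a medium term. Leaving out a pair of arrays gave 0 to 921 genes and 0 to 5 members. At 1.5-fold, 5 members (all higher) were apart between states with AICAR, where 27.7% of all genes were. For adenine against control adipocytes there were 5 (3 higher, 2 lower, 13.7% of all genes), for AICAR against control adipocytes 1 (lower, 3.66%) and for AICAR against adenine adipocytes 3 (all lower, 11.3%). For AICAR against control fibroblasts there were 6 (4 higher, 2 lower, 19%) and for AICAR against adenine fibroblasts 5 (4 higher, 1 lower, 18.9%). Median centring gave 3 members at 2-fold for adenine against control adipocytes. Dim levels limit Cebpa in fibroblasts, Klf5 and Klf15.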
